A study of Rattus norvegicus with 6 samples.

Results

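Radial glia and intermediate progenitor genes were followed in brains of newborn rats (Rattus norvegicus). The members were the 10 genes Nes, Vim, Fabp7, Hopx and Prom1 (radial glia) and Eomes, Insm1, Neurog1, Neurog2 and Btg2 (intermediate progenitors), taken by symbol from the deposited tables, where each symbol had 1 of the 30498 gene entries. The groups were 3 libraries from pups of dams on caloric restriction (CR), a rat model of fetal growth restriction (FGR), and 3 libraries from control pups. Pups came into the world by Caesarean section and their brains were taken right away; polyadenylated RNA was sequenced and the labels call all 6 samples whole brain. The sources used here do not give strain, sex, the degree of restriction, or whether each library stands for its own pup or litter. All p-values therefore rest on library-to-library spread, which may be technical.

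Radial glia are the stem cells of the developing brain. Their bodies line the ventricle, their long processes guide migrating neurons, and late in gestation many of them turn into astrocytes and ependymal cells. In the cortex, radial glia also divide to give intermediate progenitors, which leave the ventricular surface and divide again into excitatory neurons. Around birth in rodents cortical neurogenesis is ending and gliogenesis is under way, so both kinds of progenitor gene are read at a late stage.

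Expression is given as FPKM, reads per exon length and per sequencing depth, a scale on which levels of different genes can be compared. Reads assigned to genes, recovered from these values, numbered 22161522, 25734737 and 25690833 in CR replicates 1 to 3 and 14030961, 25345354 and 18429571 in control replicates 1 to 3. Regional markers set the groups apart in libraries that share the label whole brain. The 14 markers of regions caudal to the telencephalon summed to between 140.3 and 189.5 FPKM in the CR libraries and to between 5.80 and 19.0 FPKM in the control libraries; the midbrain-hindbrain gene En2 was at 5.34, 6.02 and 3.92 FPKM in CR replicates 1 to 3 and at 0.0263, 0.0145 and 0 FPKM in control replicates 1 to 3. The 8 dorsal telencephalic markers summed to between 146.5 and 223 FPKM in CR and to between 368 and 475 FPKM in control. Every difference below lies between libraries that also differ in this way, so feeding and regional makeup cannot be told apart. In bulk tissue, fewer cells of a type and less RNA per cell cannot be told apart either.

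Promoter sequences are shown for the radial glia genes that changed in opposite directions (Nes and Fabp7), for Vim as the filament partner of Nes, and for Neurog2, the member with the largest change. RefSeq (assembly GRCr8) gave a window from 250 bases before to 50 bases after the gene start for 9 of the 10 members; Insm1 was not matched. Capitals mark the TATA-box motifs TATAAA and also TATATAA, and the CCAAT-box motif, which reads ATTGG on the opposite strand, wherever they occur. Both strands were searched, and these motifs were chosen after the sequences were read. All 4 windows lie on the plus strand.
Neurog2 (chr2:218766955-218767254): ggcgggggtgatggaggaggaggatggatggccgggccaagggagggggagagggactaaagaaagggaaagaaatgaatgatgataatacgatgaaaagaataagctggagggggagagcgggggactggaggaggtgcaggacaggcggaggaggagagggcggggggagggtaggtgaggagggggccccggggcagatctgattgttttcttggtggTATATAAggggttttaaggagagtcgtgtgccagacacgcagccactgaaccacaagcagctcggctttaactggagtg
Nes (chr2:175736338-175736637): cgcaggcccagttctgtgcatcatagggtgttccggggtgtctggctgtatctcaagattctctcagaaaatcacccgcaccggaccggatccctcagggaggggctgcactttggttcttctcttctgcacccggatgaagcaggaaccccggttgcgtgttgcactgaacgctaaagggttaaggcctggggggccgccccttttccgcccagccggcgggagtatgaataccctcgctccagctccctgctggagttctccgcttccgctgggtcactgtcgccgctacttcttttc
Vim (chr17:81577011-81577310): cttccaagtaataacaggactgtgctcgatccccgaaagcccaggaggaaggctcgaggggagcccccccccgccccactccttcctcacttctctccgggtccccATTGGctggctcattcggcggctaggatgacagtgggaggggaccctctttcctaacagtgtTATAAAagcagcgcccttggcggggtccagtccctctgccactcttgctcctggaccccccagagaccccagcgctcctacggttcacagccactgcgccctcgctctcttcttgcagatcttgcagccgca
Fabp7 (chr20:37669356-37669655): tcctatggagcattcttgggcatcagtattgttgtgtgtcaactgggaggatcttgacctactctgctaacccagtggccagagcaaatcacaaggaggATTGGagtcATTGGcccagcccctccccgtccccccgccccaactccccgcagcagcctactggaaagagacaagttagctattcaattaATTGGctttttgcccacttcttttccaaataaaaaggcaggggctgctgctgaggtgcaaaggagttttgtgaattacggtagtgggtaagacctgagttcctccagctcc
Neurog2 held TATATAA with its first base at position -29 from the start, Vim held TATAAA at position -82, and Fabp7 held CCAAT in 3 places. Nes held none of these motifs. TATAAA or TATATAA was in 3 of the 9 members and in 16.1% of 33469 promoters of the same length, and CCAAT was in 6 of the 9 and in 37.5% of all. These shares cannot show an excess in the members, because the motifs were picked after these same windows were read. The E-box CAGCTG, the E-box CAGATG and the E-box CATATG, of the kind that proneural proteins bind, were searched on both strands and were in none of the 9 windows, against 32% of all promoters for any of the 3. The Notch effector motif TGGGAA was in Btg2 only among the 9, and in 25.7% of all. A match is a description of letters and no site was tested.

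Of the 9 members tested, 4 passed an adjusted p of 0.05 in the limma comparison of CR with control, 1 higher (Fabp7) and 3 lower (Nes, Insm1 and Neurog2). Neurog2 and Insm1 fell to 0.432 and 0.549 times their control means, while Fabp7 rose 1.37-fold and Nes fell to 0.740 times its control mean. Over all 15247 genes tested 33.9% passed, 17.7% as higher and 16.2% as lower, so calls among 9 members are not set apart from the background. CR and control values were fully separated in 5 of the 9 (the same 4 and Prom1), as they were in 50.3% of all genes tested. They were higher in CR for Fabp7 and Prom1 (26.1% of all genes) and lower for Nes, Insm1 and Neurog2 (24.3%). The tenth member, Neurog1, had a mean under 0.5 FPKM and was not tested.

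**Figure D1:**
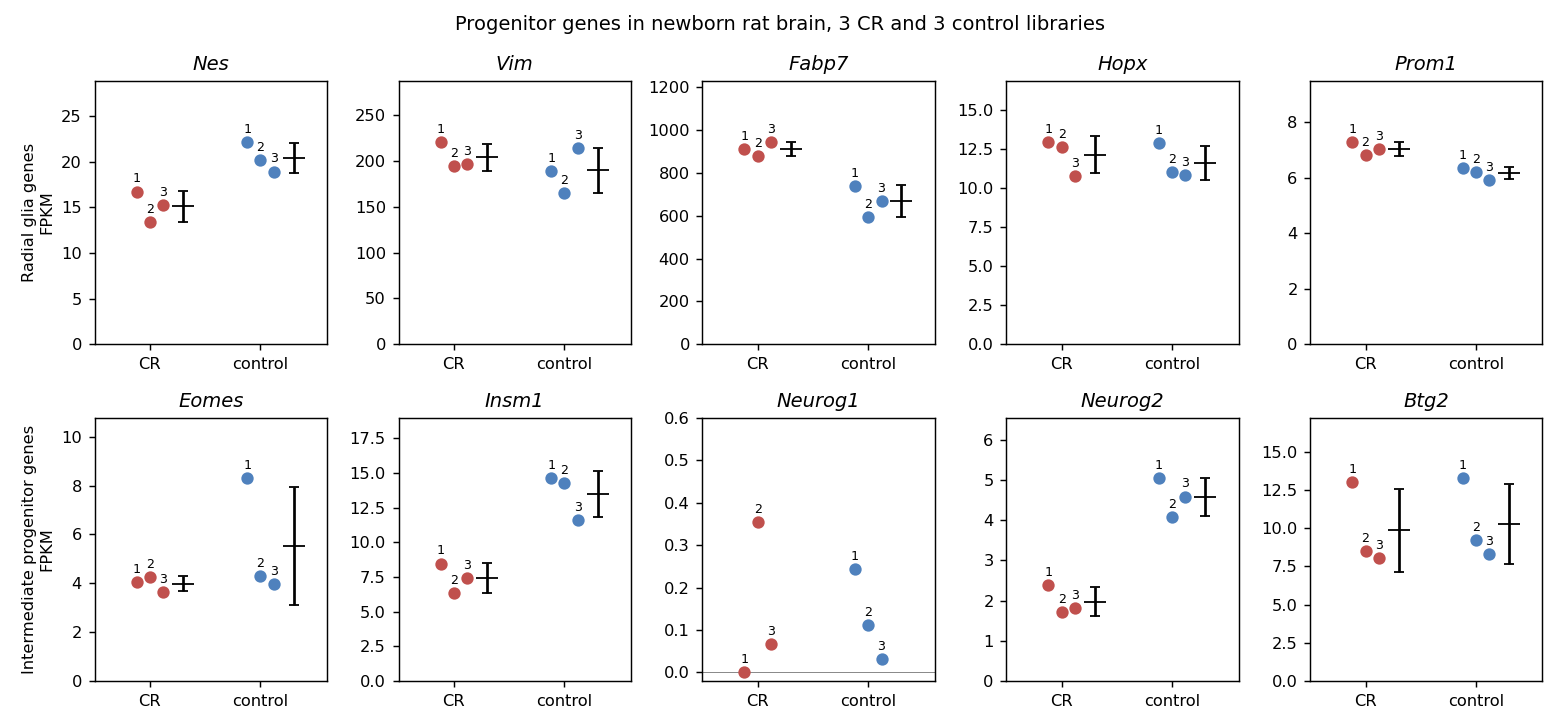
FPKM of the 10 members (vertical axes, each starting at or just below 0) in the 3 CR libraries (red) and the 3 control libraries (blue); digits are replicate numbers, and bars are mean and SD over 3 libraries, left out for Neurog1, which had 0 to 16 reads. Fabp7 and Prom1 have all CR points above all control points, Nes, Insm1 and Neurog2 have them below, and Eomes stands out in control replicate 1.

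Nes encodes nestin, an intermediate filament protein of neural stem cells. It lies on chromosome 2 from 173438734 to 173447777 (mRatBN7.2, ENSRNOG00000018681) and had 1992 to 3272 reads per library. Nes was at 16.7, 13.3 and 15.3 FPKM in CR replicates 1 to 3 and at 22.2, 20.2 and 18.9 FPKM in control replicates 1 to 3. All CR values lay below all control values, and the difference was larger than the spread between libraries (log2 fold change -0.41, SE 0.0919, limma adjusted p = 0.0123). Vim encodes vimentin, the filament protein with which nestin assembles, and lies on chromosome 17 from 76668647 to 76677187. Vim was at 221, 194 and 196 FPKM in CR and at 189, 165 and 214 FPKM in control. The groups overlapped, and the log2 fold change of 0.11 did not pass (95% interval -0.11 to 0.33, limma adjusted p = 0.412). Nestin RNA was therefore lower relative to vimentin RNA in CR: Nes over Vim was 0.0758, 0.0686 and 0.0778 in CR and 0.117, 0.122 and 0.0884 in control, with no overlap. A single ratio over 3 against 3 libraries cannot go below an exact two-sided permutation p of 0.1, and none is given here for ratios.

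Fabp7 encodes the brain lipid-binding protein, a fatty acid carrier of radial glia that astrocytes and their precursors also make. It lies on chromosome 20 from 37123193 to 37126880 and was the most abundant member, above 99.6% of tested genes by mean FPKM. Fabp7 was at 911, 879 and 945 FPKM in CR and at 740, 592 and 669 FPKM in control. The lowest CR library lay above the highest control library, and the rise was larger than the spread (log2 fold change 0.46, SE 0.0825, limma adjusted p = 0.00567). In the same libraries astrocyte markers were higher: 12 of 13 passed as higher, none as lower and 1 did not pass, with a median log2 fold change of 0.72 against 0.01 over all tested genes. The shares over all tested genes, for this list and the next, were 17.7% as higher and 16.2% as lower. The 13 astrocyte markers summed to between 907 and 981 FPKM in CR and to between 426 and 579 FPKM in control, and none of them was at 0. Of 5 oligodendrocyte precursor markers 2 were higher, among them Olig1 (25.1 ± 1.99 FPKM in CR and 18.9 ± 2.57 FPKM in control, SD, n = 3 each). The Olig1 call was lost when CR replicate 2 was left out (limma adjusted p = 0.0663), when CR replicate 3 was left out (0.0788) and when low values were not filtered (0.0502). The precursor markers summed to between 48.6 and 54.5 FPKM in CR and to between 37.7 and 42.8 FPKM in control. The part of these other cells in the Fabp7 difference was not tested.

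Hopx and Prom1 differed little between the groups. Hopx, which encodes a small homeodomain protein and marks outer radial glia in human cortex and stem cells of the mouse dentate gyrus, lies on chromosome 14 from 31075148 to 31082909. Hopx was at 12.9, 12.6 and 10.8 FPKM in CR and at 12.8, 11.04 and 10.8 FPKM in control. The values overlapped and the log2 fold change was 0.06 (95% interval -0.15 to 0.27, limma adjusted p = 0.642). Prom1 encodes prominin-1 (CD133), a glycoprotein of apical membrane protrusions of neural stem and ependymal cells, and lies on chromosome 14 from 66990160 to 67094527. Prom1 was at 7.29, 6.80 and 7.01 FPKM in CR and at 6.33, 6.21 and 5.92 FPKM in control. Every CR value lay above every control value, but the log2 fold change of 0.17 did not pass (95% interval 0.01 to 0.33, limma adjusted p = 0.0970). Of 7 ependymal markers tested 5 were higher, 1 (Mia, named after its values were seen) was lower and 1 did not pass. The shares over all tested genes were 17.7% as higher and 16.2% as lower. The ependymal markers summed to between 46.9 and 61.1 FPKM in CR and to between 25.01 and 40.5 FPKM in control. Their leading members were Ccdc153, Rsph1 (13.6 ± 1.32 FPKM in CR and 7.89 ± 1.88 FPKM in control, SD, n = 3 each), Cfap126 and Dynlrb2; none was at 0, and Foxj1 was not analysed here. The calls of Ccdc153, Cfap126 and Dynlrb2 were each lost with no filter on low values and without at least CR replicate 2 or CR replicate 3 (limma adjusted p = 0.0683 to 0.105 with no filter).

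Nestin and vimentin are also made by endothelial, mural and meningeal cells. None of 5 tested endothelial markers passed the limma threshold, and they summed to between 26.2 and 31.6 FPKM in CR and to between 25.2 and 27.6 FPKM in control. Of 6 pericyte markers 1 was higher, Notch3 (4.55 ± 0.0349 FPKM in CR and 2.85 ± 0.0721 FPKM in control, SD, n = 3 each), and the 6 summed to between 37.3 and 47.5 FPKM in CR and to between 36.1 and 40.3 FPKM in control. Of 7 meningeal markers 1 was higher, the growth factor gene Igf2, and the 7 summed to between 130 and 155 FPKM in CR and to between 64.9 and 128 FPKM in control. None of these 3 lists had a member that passed as lower, and none had a member at 0. Over all tested genes 17.7% passed as higher and 16.2% as lower. Values did not overlap and were lower in CR for 1 endothelial marker (24.3% of all tested genes). They did not overlap and were higher in CR for 3 pericyte and 2 meningeal markers (26.1% of all tested genes). The part of these other cells in the Nes and Vim values was not tested.

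**Figure D2:**
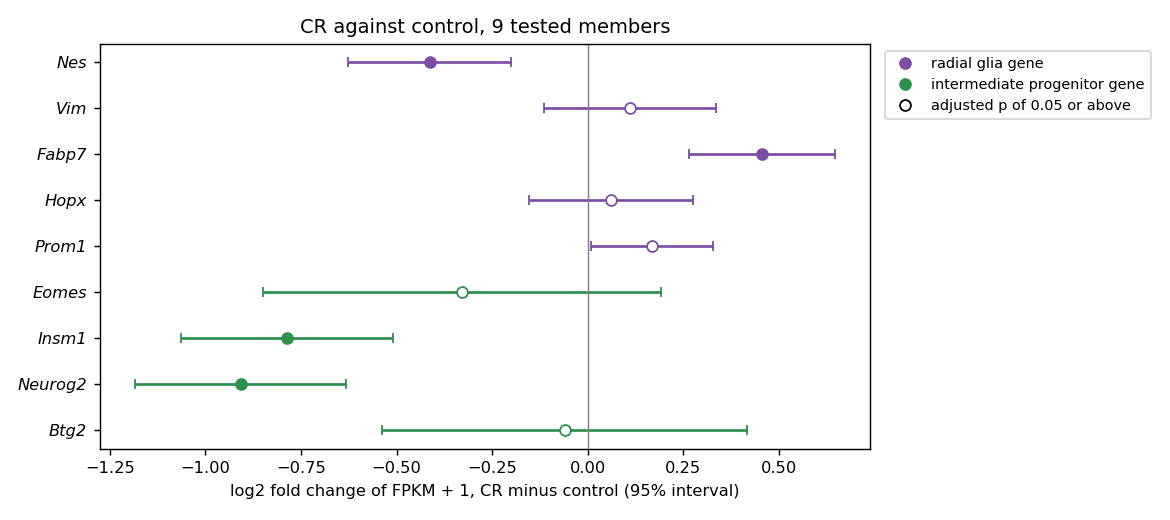
Log2 fold change of FPKM + 1, CR minus control (horizontal axis), with its 95% interval for the 9 tested members, radial glia genes in purple above intermediate progenitor genes in green; filled points passed an adjusted p of 0.05. Fabp7 lies at 0.46 and Nes at -0.41, while Insm1 and Neurog2 lie at -0.79 and -0.91.

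Among intermediate progenitor genes, the proneural factor gene Neurog2 and the zinc-finger gene Insm1 were lower in CR. Neurog2 encodes a basic helix-loop-helix factor that drives radial glia of the dorsal telencephalon towards neurons, and lies on chromosome 2 from 216093363 to 216094154 as a model of 792 nt. Neurog2 was at 2.39, 1.72 and 1.82 FPKM in CR and at 5.04, 4.09 and 4.59 FPKM in control, from 35 to 42 reads per CR library and 56 to 82 reads per control library. The groups were far apart relative to their spread (log2 fold change -0.91, SE 0.119, limma adjusted p = 0.00184). With limma-voom on the reads, which has no pseudocount of 1 FPKM, the Neurog2 change was -1.20 (adjusted p = 0.00217). Insm1 encodes a factor that promotes the formation of intermediate progenitors in mouse cortex and also acts in neuroendocrine cells, and lies on chromosome 3 from 133639580 to 133643003. Insm1 was at 8.47, 6.32 and 7.43 FPKM in CR and at 14.6, 14.3 and 11.6 FPKM in control. Every CR value lay below every control value (log2 fold change -0.79, SE 0.119, limma adjusted p = 0.00305).

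Eomes, Btg2 and Neurog1 did not pass or were not tested. Eomes encodes Tbr2, the T-box factor that defines cortical intermediate progenitors, and lies on chromosome 8 from 118181777 to 118188316. Eomes was at 4.05, 4.24 and 3.64 FPKM in CR and at 8.29, 4.29 and 3.96 FPKM in control. Control replicate 1 alone stood above the rest, and control replicates 2 and 3 overlapped the CR libraries. The log2 fold change of -0.33 did not pass (95% interval -0.85 to 0.19, limma adjusted p = 0.289), and without control replicate 1 it was -0.04 (adjusted p = 0.777). Tfap2c, a transcription factor gene of intermediate progenitors that falls outside the rule for named genes and was chosen after its values were seen, was highest in the same library (1.42, 1.15 and 0.994 FPKM in CR and 3.38, 1.81 and 1.73 FPKM in control). Tfap2c did not pass (log2 fold change -0.56, limma adjusted p = 0.0566), but it passed as lower under 5 alternatives, with limma adjusted p from 0.0233 to 0.0416.

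Btg2, also known as Tis21, is an antiproliferative gene switched on in progenitors that are about to make neurons, and it also responds to p53 and to growth signals. It lies on chromosome 13 from 45531925 to 45535628, on the minus strand. Btg2 was at 13.0, 8.501 and 8.04 FPKM in CR and at 13.3, 9.25 and 8.33 FPKM in control. In each group replicate 1 was high and the other two libraries were close together, and the groups overlapped (log2 fold change -0.06, 95% interval -0.54 to 0.42, limma adjusted p = 0.845). The sign of the Btg2 difference changed to positive without CR replicate 2 or 3 and without control replicate 1. The 9 immediate early genes analysed summed to 26.8, 17.3 and 22.2 FPKM in CR and to 33.6, 29.3 and 22.9 FPKM in control, so replicate 1 was also the highest of each group there. Of the 7 tested, Junb (4.67 ± 1.69 FPKM in CR and 7.69 ± 0.511 FPKM in control, SD, n = 3 each) and Arc were lower and 5 did not pass. Over all tested genes 33.9% passed, 16.2% as lower. The Junb and Arc calls were both lost in several leave-one-out fits, among them without CR replicate 3 (limma adjusted p = 0.0939 for Junb and 0.0685 for Arc). The part of these genes in the Btg2 values was not tested.

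Neurog1, the relative of Neurog2 with roles in cortex, midbrain, hindbrain and sensory ganglia, lies on chromosome 17 from 8362821 to 8364571. It had 0, 16 and 3 reads in CR replicates 1 to 3 (0, 0.355 and 0.0667 FPKM) and 6, 5 and 1 reads in control replicates 1 to 3 (0.244, 0.113 and 0.0310 FPKM). The 0 reads of CR replicate 1 allow up to 0.0773 FPKM, the value of 3 reads, for counting error only. A difference in Neurog1 was not detectable at this depth.

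The intermediate progenitor genes were then set against the radial glia genes within each library, as a description with no test. The 5 intermediate progenitor genes summed to 27.9, 21.1 and 21.0 FPKM in CR and to 41.4, 32.0 and 28.5 FPKM in control. The 5 radial glia genes summed to 1169, 1107 and 1174 FPKM in CR and to 971, 795 and 919 FPKM in control. Neither sum overlapped between the groups, and they moved in opposite directions. As a percentage of the radial glia sum, the intermediate progenitor sum was 2.39%, 1.91% and 1.79% in CR and 4.27%, 4.03% and 3.10% in control, or 0.534 times the control mean. Fabp7 made up 79.3% ± 1.27 of the radial glia sum in CR and 74.5% ± 1.71 in control (SD, n = 3 each). Without Fabp7 and Insm1, the gene with the highest mean FPKM over all libraries in each set, the percentages were 7.54%, 6.52% and 5.92% in CR and 11.6%, 8.76% and 6.77% in control. These overlapped, so the separation of the groups was not kept without those genes.

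Some members of 1 set did not keep a fixed ratio to each other between the groups. Neurog2 over Eomes was 0.590, 0.405 and 0.499 in CR and 0.608, 0.952 and 1.158 in control, and Btg2 over Insm1 was 1.54, 1.35 and 1.08 in CR and 0.907, 0.648 and 0.719 in control. Neither ratio overlapped between the groups. Nes over Fabp7 was 0.0184, 0.0152 and 0.0162 in CR and 0.0300, 0.0341 and 0.0283 in control, again with no overlap. Insm1 over Eomes did overlap, at 2.09, 1.49 and 2.04 in CR and 1.76, 3.33 and 2.92 in control. For Neurog2 over Eomes the groups were only narrowly apart, at 0.590 in CR against 0.608 in control. The share of all gene pairs whose ratios do not overlap was not counted. Hopx over the astrocyte water channel gene Aqp4 was 1.02, 0.813 and 0.678 in CR and 2.16, 2.58 and 1.44 in control. Hopx itself overlapped between the groups while Aqp4 rose (14.7 ± 1.74 FPKM in CR and 5.92 ± 1.62 FPKM in control, SD, n = 3 each; log2 fold change 1.21, limma adjusted p = 0.00237).

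Each member was also set against Emx1, a transcription factor gene of the dorsal telencephalon, in the same library. Emx1 was at 7.86, 4.30 and 6.71 FPKM in CR and at 20.3, 16.9 and 14.1 FPKM in control (log2 fold change -1.33, SE 0.199, limma adjusted p = 0.00287). Neurog2 over Emx1 was 0.305, 0.399 and 0.271 in CR and 0.248, 0.242 and 0.325 in control, so the ratios of the groups overlapped. Insm1 over Emx1 was 1.08, 1.47 and 1.11 in CR and 0.718, 0.847 and 0.821 in control, higher in all CR libraries although Insm1 itself was lower. Eomes over Emx1 was likewise higher in CR (0.516, 0.986 and 0.544) than in control (0.407, 0.255 and 0.281). Btg2 and the 5 radial glia genes had ratios to Emx1 that did not overlap either, from 2.07-fold higher in CR for Nes to 3.88-fold higher for Fabp7. Emx1 itself was at 0.368 times its control mean, so a gene that fell less than Emx1 has a higher ratio in CR. The proliferation gene Mki67, not a member, also had a ratio 2.36-fold higher without overlap. The share of all genes with such ratios was not counted, so these ratios cannot be called a trait of the members. The direction depended on the marker. Against all 8 dorsal telencephalic markers, a comparison added after the data were seen, Insm1 ratios were higher in CR without overlap for 6, overlapped for Lhx2 and were lower for Emx2. Insm1 over Emx2 was 1.46, 1.13 and 1.63 in CR and 2.12, 2.43 and 1.87 in control; Emx2 is the marker that did not pass as lower (0.841 times its control mean, limma adjusted p = 0.140). Neurog2 ratios overlapped for 6 markers and were lower in CR for Emx2 and Lhx2, Eomes ratios were higher for 4 and overlapped for 4, and Nes ratios were higher for 7 and overlapped for Emx2. A ratio shows unequal change of the 2 genes and not which of them changed.

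**Figure D3:**
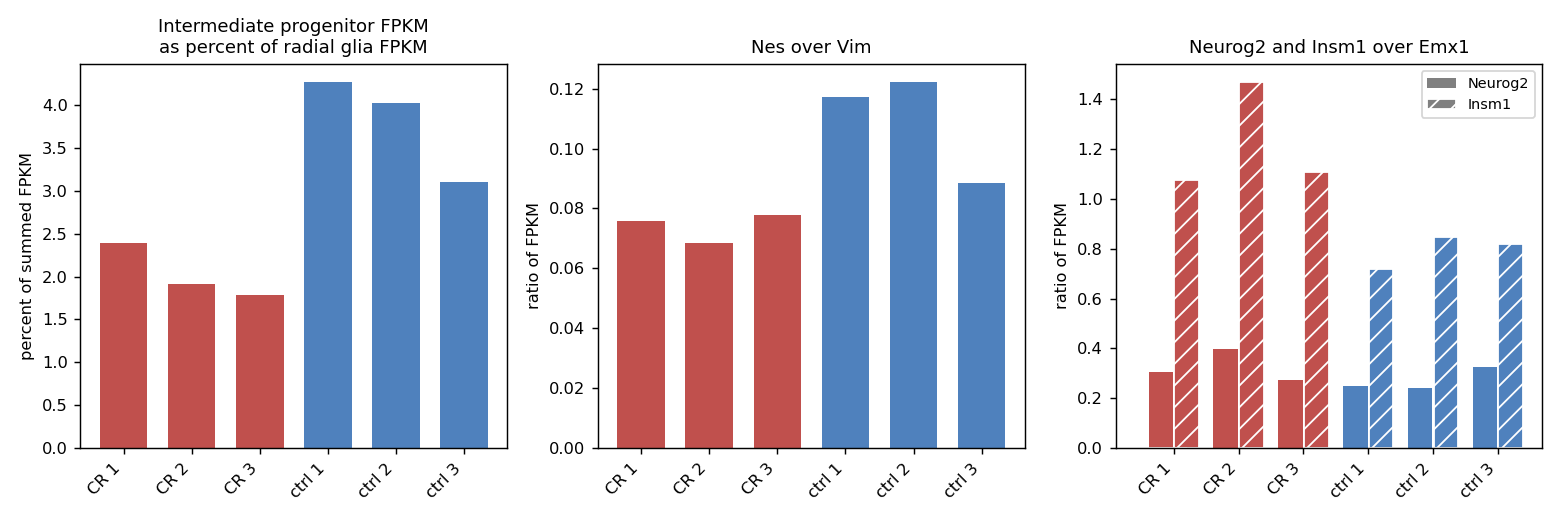
Summed FPKM of the intermediate progenitor genes as a percentage of that of the radial glia genes (left), Nes over Vim (middle), and Neurog2 (plain bars) and Insm1 (hatched bars) over Emx1 (right), for each CR library (red) and control library (blue, ctrl). The first measure is 1.79% to 2.39% in CR and 3.10% to 4.27% in control, and the Neurog2 ratios to Emx1 overlap between the groups.

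Other genes of radial glia went in both directions. Of 17 tested, 4 passed as higher, 1 as lower and 12 in neither direction, with a median log2 fold change of 0.00 against 0.01 over all tested genes, of which 33.9% passed. The higher genes were the endothelin receptor gene Ednrb (24.4 ± 1.89 FPKM in CR and 8.63 ± 1.61 FPKM in control, SD, n = 3 each; log2 fold change 1.41, limma adjusted p = 0.000577), the acyl-CoA-binding protein gene Dbi (130 ± 13.2 and 72.2 ± 5.82 FPKM in CR and control), Ddah1, an enzyme that degrades methylated arginine (47.9 ± 3.76 and 26.7 ± 2.85 FPKM in CR and control), and the transcription factor gene Pax6. Ednrb and Dbi are also expressed by astrocytes. Pax6, named after its values were seen because it completes the count, was at 14.4, 13.3 and 11.3 FPKM in CR and at 11.6, 9.12 and 8.48 FPKM in control, with overlapping groups and a marginal call (log2 fold change 0.39, limma adjusted p = 0.0482). The Pax6 call was lost with median-ratio size factors (adjusted p = 0.0513), without the trend (0.0678), with no filter (0.0980) and in 4 of the 6 leave-one-out fits (0.114 to 0.141), and Pax6 is also a gene of cerebellar granule cells. The lower gene was Nr2e1, the nuclear receptor gene Tlx of forebrain stem cells (1.77 ± 0.0911 FPKM in CR and 2.97 ± 0.306 FPKM in control, SD, n = 3 each; log2 fold change -0.52, limma adjusted p = 0.00674). Ptprz1 and Sox3 were not analysed here, and Mfge8 had a mean under 0.5 FPKM.

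Of 11 other genes of intermediate progenitors, 4 passed as lower, 1 as higher and 6 in neither direction, with a median log2 fold change of -0.16. Over all tested genes 16.2% passed as lower and 17.7% as higher. The lower genes were the somatostatin receptor gene Sstr2 (3.18 ± 0.218 FPKM in CR and 5.44 ± 0.911 FPKM in control, SD, n = 3 each), the differentiation factor gene Neurod1 (16.8 ± 1.54 and 24.1 ± 2.57 FPKM in CR and control) and the Notch ligand genes Dll1 and Dll3. Dll1, named after its values were seen to complete the count, was at 3.74 ± 0.125 and 5.21 ± 0.272 FPKM in CR and control (limma adjusted p = 0.00842). Dll3 was at 1.84 ± 0.0766 and 2.77 ± 0.330 FPKM in CR and control (limma adjusted p = 0.0183), and its call was lost without CR replicate 2 (0.0668), without CR replicate 3 (0.0636) and without control replicate 1 (0.0525). The higher gene was Ppp1r17, a phosphatase inhibitor gene that cerebellar Purkinje cells also express (3.34 ± 0.268 FPKM in CR and 1.73 ± 0.235 FPKM in control, SD, n = 3 each; log2 fold change 0.67, limma adjusted p = 0.00334).

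Progenitor genes of the ventral telencephalon and genes of young neurons were mostly lower too. For comparison with the counts below, 17.7% of all tested genes passed as higher and 16.2% as lower. Of 8 ventral and interneuron progenitor genes 6 were lower, 1 (Nkx2-1) was higher and 1 did not pass, with a median log2 fold change of -0.55. Dlx5, a homeobox gene of forebrain GABAergic precursors, was at 13.8 ± 0.883 FPKM in CR and 27.3 ± 2.85 FPKM in control (SD, n = 3 each; log2 fold change -0.93, limma adjusted p = 0.000577). Of 9 young neuron genes 7 were lower and 2 did not pass, with a median log2 fold change of -0.60. Of those 2, Nhlh2 went the other way, with all CR values above all control values (log2 fold change 0.42, limma adjusted p = 0.0503). Tubb3 had all CR values below all control values (log2 fold change -0.19, limma adjusted p = 0.0973). The lower genes were led by Neurod6 (83.7 ± 18.8 FPKM in CR and 199.9 ± 32.2 FPKM in control, SD, n = 3 each), Tbr1 (19.2 ± 3.55 FPKM in CR and 43.8 ± 7.18 FPKM in control, SD, n = 3 each), the gene of the T-box factor that follows Eomes in cortical neurons, Neurod2 and Sox11. Neurod6 and Tbr1 are also in the dorsal telencephalic list.

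Genes of dividing cells were also examined. Of 19 proliferation genes 5 (Mcm4, Ccnd2, Mcm7, Top2a and Pcna) passed as lower and 14 did not pass, with a median log2 fold change of -0.15. Over all tested genes 33.9% passed in either direction and 16.2% as lower. Mcm4, a subunit gene of the replication helicase, was at 8.005 ± 0.957 FPKM in CR and 13.4 ± 0.498 FPKM in control (SD, n = 3 each; limma adjusted p = 0.00176), and the cyclin gene Ccnd2 was at 25.3 ± 2.87 and 35.7 ± 3.00 FPKM in CR and control. The Mcm7 call was lost in 4 leave-one-out fits (limma adjusted p up to 0.0749). The Top2a call was lost in 8 alternatives (limma adjusted p 0.0556 to 0.136): 4 leave-one-out fits, no filter, quantile normalization, limma without trend and the replicate block. Insm1 over the proliferation gene Mki67 was 1.35, 1.29 and 1.25 in CR and 1.99, 2.22 and 1.80 in control, and Nes over Mki67 was 2.66, 2.72 and 2.57 in CR and 3.03, 3.14 and 2.94 in control. Neither overlapped between the groups, at 0.646 times the control mean for Insm1 and 0.873 times for Nes. The difference between these was not tested. How many of all tested genes have ratios to Mki67 that do not overlap was not counted.

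**Figure D4:**
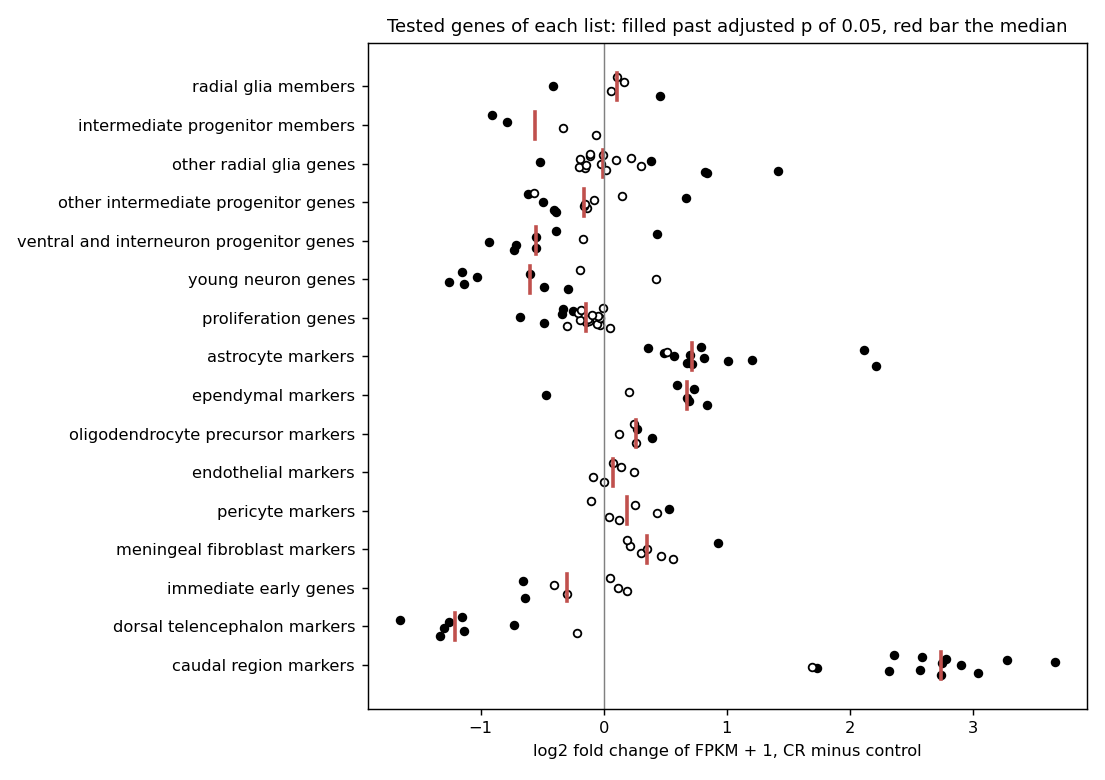
Log2 fold change of FPKM + 1, CR minus control (horizontal axis), of each tested gene of the members and of the lists of related genes and other cell types; filled points passed an adjusted p of 0.05 and red bars are medians. The intermediate progenitor members have a median of -0.56 and the radial glia members one of 0.11, between dorsal telencephalic markers at -1.21 and caudal markers at 2.74.

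The genes most like Fabp7 and Eomes over the 6 libraries were found by Pearson correlation of log2(FPKM + 1) among tested genes with a symbol and a mean of at least 1 FPKM. Points of 1 group share their feeding and regional makeup, so the values are a description. For Fabp7 they were Rassf4, Mesd, Aldh6a1, Cast and Nid1, all with r of 0.996; Nid1 was at 20.8, 19.4 and 20.6 FPKM in CR and at 15.2, 11.97 and 14.0 FPKM in control. For Eomes they were Nostrin (r = 0.996), U1, Rpl39, Hist1h2af and Dpp4 (r from 0.977 to 0.984), each with its highest value in control replicate 1. Reads of U1, Rpl39 and Hist1h2af can be shared with near-identical copies, so these values are uncertain. Between members, Fabp7 had r of 0.88 with Prom1, -0.84 with Insm1, -0.83 with Neurog2 and -0.73 with Nes, and Eomes had r of 0.67 with Btg2, 0.63 with Nes, 0.58 with Insm1 and with Neurog2, and 0.53 with Hopx.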

How the data were processed

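Whole-brain RNA of newborn rats was sequenced in 3 CR and 3 control libraries. Per the submitters' processing notes, the tools included STAR 2.7.10a, featureCounts 2.0.1, cutadapt 1.16, Trimmomatic 0.36 and Trim Galore 0.4.4, with the build mRatBN7.2; order, settings and strand use are not given in the sources used here. None of the 10 members overlaps another gene of the tables. The authors deposited FPKM per Ensembl gene; 100% of values above 0 were whole multiples (within 0.05) of 1 read, so reads could be worked out. Depth was 14030961 to 25734737 assigned reads per library; precision for Neurog2 and Neurog1 is limited by their few reads. Libraries within a group were further apart than sampling noise allows (mean chi-square per gene 6.63 to 15.6, for genes holding 50 or more reads in the pair compared).

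Genes whose mean reached 0.5 FPKM were tested with limma 3.58.1 in R 4.3.3 on log2(FPKM + 1), with group as the only term and a trend on the mean, two-sided, Benjamini-Hochberg adjusted over 15247 genes at a threshold of 0.05. That scale understates the change of low genes. The fit was tested on simulated data. Where several IDs share a symbol, the one with the highest mean was used. The members and lists were chosen with earlier results of these data known. Named genes are the members, up to 4 called genes of each list by size of change (up to 2 by p where none was called), the 5 genes most like Eomes and Fabp7, and Emx1. En2, Emx2, Lhx2, Mki67, Pax6, Dll1, Tfap2c, Mia, Nkx2-1, Pcna, Nhlh2 and Tubb3 fall outside this rule and were named after their values were seen. Alternatives were other pseudocounts, filters, scalings, limma settings, limma-voom on reads, a replicate block and leaving out each library; ratios to the other dorsal markers were added after the data were seen.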

Additional observations from a re-analysis of the deposited data

How the results depend on the processing

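All 15 alternatives tried for Nes, Fabp7, Insm1 and Neurog2 kept the direction and the call, with log2 fold changes of -0.49 to -0.33, 0.37 to 0.53, -0.88 to -0.69 and -1.20 to -0.85 and limma adjusted p of at most 0.0397, 0.0260, 0.0146 and 0.0108. Vim, Hopx, Prom1 and Eomes kept their direction and stayed uncalled (adjusted p of at least 0.102, 0.310, 0.0710 and 0.131). Btg2 changed sign without CR replicate 2 (0.02), without CR replicate 3 (0.06) and without control replicate 1 (0.12), was -0.26 without CR replicate 1, and was uncalled in every fit; the cause was not tested. Radial glia and intermediate progenitor members had 2 calls each in all fits. Over all genes the 5173 calls became 3243 to 5037 when 1 library was left out, with 3243 without CR replicate 2 and 3339 without CR replicate 3. The ratio of intermediate progenitor to radial glia sums, 0.534 times control in CR, was 0.711 from means of log2(FPKM + 1) and 0.736 without the gene with the highest FPKM of each set; the cause was not tested. It was 0.487 to 0.569 when 1 library was left out. Replicate numbers share no stated origin, and deviations of same-numbered libraries correlated weakly (r of 0.0245, 0.0198 and 0.0454). Each library correlated best with its own number, but CR replicate 2 had nearly the same r with control replicate 1 (0.01655). Values this small over 3 libraries per group cannot show whether the libraries are paired. The replicate block gave 4445 calls over all genes and changed no member's call. Depth limits Neurog1 (0 to 16 reads), which had an adjusted p of 0.982 with no filter.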

Other observations

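Further lists are given against the 33.9% of all tested genes that passed, 17.7% as higher and 16.2% as lower. Of 6 microglia markers 4 were higher in CR and 2 did not pass the limma threshold; C1qb, a complement gene of microglia, was at 20.2 ± 1.64 FPKM in CR and 12.8 ± 1.99 FPKM in control (SD, n = 3 each, limma adjusted p = 0.00506). The calls of the other microglia genes were lost in some alternatives: Csf1r in 7 (limma adjusted p 0.0508 to 0.0956), P2ry12 without CR replicate 2 (0.0567) and without CR replicate 3 (0.0661), and C1qa without CR replicate 1 (0.0560). Of 5 tested choroid plexus markers 1 was higher, Otx2, a homeobox gene that the midbrain also expresses (10.3 ± 3.52 FPKM in CR and 2.87 ± 0.891 FPKM in control, limma adjusted p = 0.00306). Of 10 p53 target genes, a class that includes Btg2, 2 were higher and 2 were lower: Phlda3 was at 6.94 ± 0.609 FPKM in CR and 2.83 ± 0.202 FPKM in control, and Mdm2 at 14.7 ± 0.894 FPKM in CR and 20.4 ± 2.24 FPKM in control.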
